A study of Saccharomyces cerevisiae with 14 samples.

Results

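Expression of JHD2 was raised in a budding yeast strain, and its transcripts were compared with those of its own wild type on 4 Affymetrix Yeast 2.0 arrays, 2 per strain. These 4 arrays were chosen by their titles from the 14 arrays of the series. The other 10 arrays hold a jhd2 deletion with its wild type (3 arrays each) and a set1 deletion with its wild type (2 arrays each). The study set the JHD2 strains against the set1 deletion in order to separate what Jhd2 does through methylation of lysine 4 of histone H3 (H3K4) from what it does otherwise.

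The overexpression strain was labelled (jhd2∆::KanMx)+(JHD2 O/E), so that a cassette replaced its own JHD2 gene while an added source supplied the transcript, and its further markers were his3-1, leu2-0, lys2-0 and ura3-0. The wild type of this pair was labelled his3∆1, le2∆0, lys2∆0 and ura3∆0, and also TRP+, MET15+ and ADE+. The jhd2 deletion was labelled with the same 4 auxotrophic deletions and jhd2::KanMX, and the set1 deletion with set1::KanMx and with his3-1, met15-0, leu2-0 and ura3-0. Both of their wild types carried the labelled genotype of the wild type above. The sources used here give neither the growth medium nor the promoter or plasmid that drove JHD2. Every culture was harvested at 30 °C and at an absorbance (600 nm) between 0.6 and 0.7, and the labels call the replicates biological. They do not say whether the 2 arrays of a strain came from separate transformants.

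Jhd2 is a demethylase of the JmjC family that removes methyl groups from H3K4. Set1, the catalytic subunit of the COMPASS complex, adds these methyl groups, mainly over the start of transcribed genes. Overexpression of Jhd2 is therefore used to lower H3K4 methylation in living yeast cells, although the mark itself was not measured on these arrays.

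A signal here is the MAS5 value of a probe set on a linear scale, and a change is the mean log2 signal of the overexpression arrays minus that of their wild-type arrays, fitted with limma and given with its standard error (SE). A gene was called where its p-value, adjusted over all 5415 tested genes, was under 0.05. Signals were measured on whole cultures, in which fewer cells with a transcript and less transcript per cell cannot be told apart.

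JHD2 itself was the check of the labels. Its signal was 5207 and 6237 on the overexpression arrays, against 226 and 211 on their wild-type arrays. The groups did not overlap, and the change of 4.71 ± 0.45 was 26.1-fold (adjusted p = 0.000274). On the wild-type arrays of the jhd2 deletion experiment JHD2 read 119 to 140, and on the jhd2 deletion arrays it read 0.230 to 3.41, under the background of each array. The overexpression arrays thus lay above all 12 other arrays.

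The strains were checked against mating-type, meiosis, galactose and nutritional markers. The 5 alpha-specific genes summed to 15579.8 and 16872 on the overexpression arrays, against 15762 and 15423 on the wild-type arrays, and the 7 a-specific genes summed to only 556 and 412, against 425 and 348. All 4 cultures thus had the expression type of alpha cells. The 7 meiosis markers summed to 504 and 548 on the overexpression arrays and to 688 and 639 on the wild-type arrays. The galactose genes GAL1, GAL2, GAL7 and GAL10 summed to 234 and 246 on the overexpression arrays, against 279 and 214 on the wild-type arrays. LEU2, an enzyme of leucine synthesis, read 6895 and 6823 on the overexpression arrays and 6875 and 7294 on the wild-type arrays, although the labels of the 2 strains give leu2-0 and le2∆0, and it read 5.27 to 46.2 on the other 10 arrays. HIS3 read 2984 and 2381 on the overexpression arrays and 3236 and 3407 on the wild-type arrays, although the labels give his3-1 and his3∆1. On the other 10 arrays it read 1356 to 3052.5. MET17 read 4985 and 5140 on the overexpression arrays, against 5014 and 5266 on the wild-type arrays. URA3 and LYS2 lay under the background of the array on all 4 arrays.

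The 4 arrays had 99.2% to 99.9% of the tested genes above background, and log2 signals correlated at 0.99 within each strain and at 0.96 between strains. The background of the arrays differed between the strains, at 7.28 and 7.97 on the overexpression arrays, against 10.2 and 10.1 on the wild-type arrays. The RNA of the 2 strains differed in a further technical measure. The 3′ to 5′ ratio, taken over control probe sets for both ends of a transcript, increases as RNA is degraded or incompletely copied. It was 1.44 and 1.43 (log2) on the overexpression arrays, against 0.88 and 0.66 on their wild-type arrays. In the jhd2 deletion experiment, replicate 3 had ratios of 1.33 in the deletion strain and 1.50 in its wild type, against 0.54 to 0.60 on the other 4 arrays. Across the 5415 tested genes, which are not independent replicates, the overexpression change correlated with the difference between replicate 3 and replicates 1 and 2 of that experiment, at a Pearson r of 0.58, although the 2 sets share no arrays. Within the 4 arrays the ratio and the strain went together, so their parts in a change cannot be told apart there. A fit with the ratio as a covariate draws on differences in the ratio within groups. These were largest between replicate 3 and the other replicates of the jhd2 deletion experiment. Calls lost or gained in that fit are given with the genes below, and the part of the ratio in any single change was not tested.

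**Figure D1:**
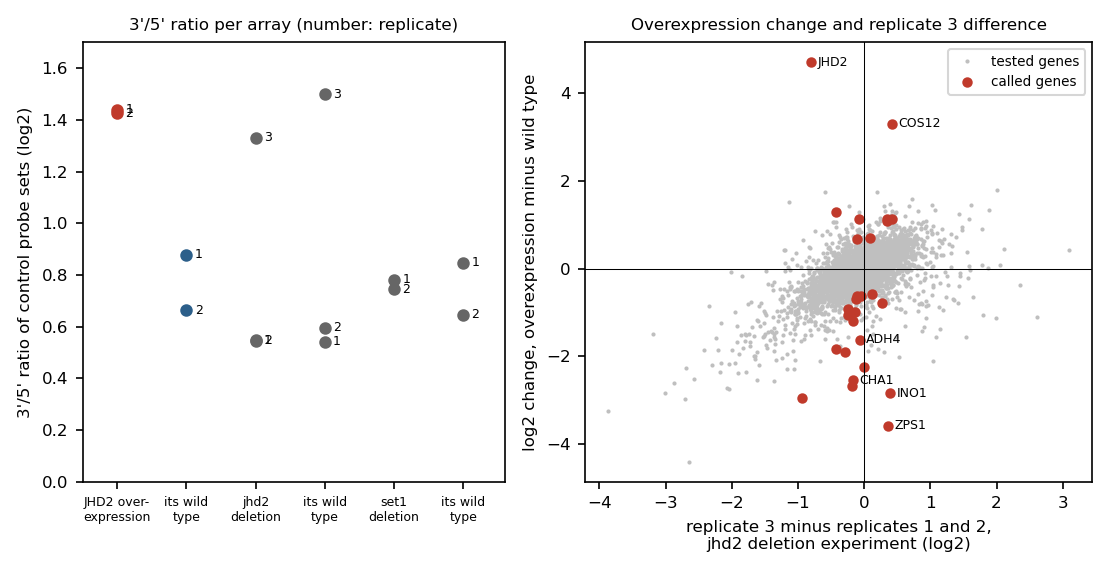
The left panel plots the 3′ to 5′ ratio of control probe sets (log2) on each of the 14 arrays by group, with the replicate number beside each point. The right panel plots, for each tested gene, the overexpression change (vertical, log2) against the difference of replicate 3 from replicates 1 and 2 in the jhd2 deletion experiment (horizontal, log2); the points form a band with a Pearson r of 0.58, and the called genes ZPS1, INO1, CHA1 and JHD2 stand away from it.

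With all 14 arrays in one fit, 28 genes were called (0.517% of the tested genes), 9 of them higher (0.166%) and 19 lower (0.351%) in the overexpression strain. The 2 overexpression arrays lay apart from the 2 wild-type arrays for each of the 28, as they did for 63.0% of all tested genes. The change was at least 1 on the log2 scale for 19 of the 28. The smallest adjusted p-values belonged to ZPS1, CHA1, ADH4 and INO1, all lower in the overexpression strain, and to JHD2, which was higher there. These calls depended on the arrays used to estimate the spread: with the 4 arrays alone, 955 genes passed (17.6%), 402 higher (7.42%) and 553 lower (10.2%), all 28 among them. With the 3′ to 5′ ratio as a covariate 29 genes passed (0.536%), of which 12 were among the 28, so that 16 of the 28 calls were lost. The 5 genes JHD2, ZPS1, INO1, CHA1 and ADH4 passed whichever of the 14 arrays was left out. The number of genes called ranged from 5, without overexpression replicate 2 or without its wild-type replicate 1, to 157, without replicate 3 of the wild type of the jhd2 deletion experiment.

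**Figure D2:**
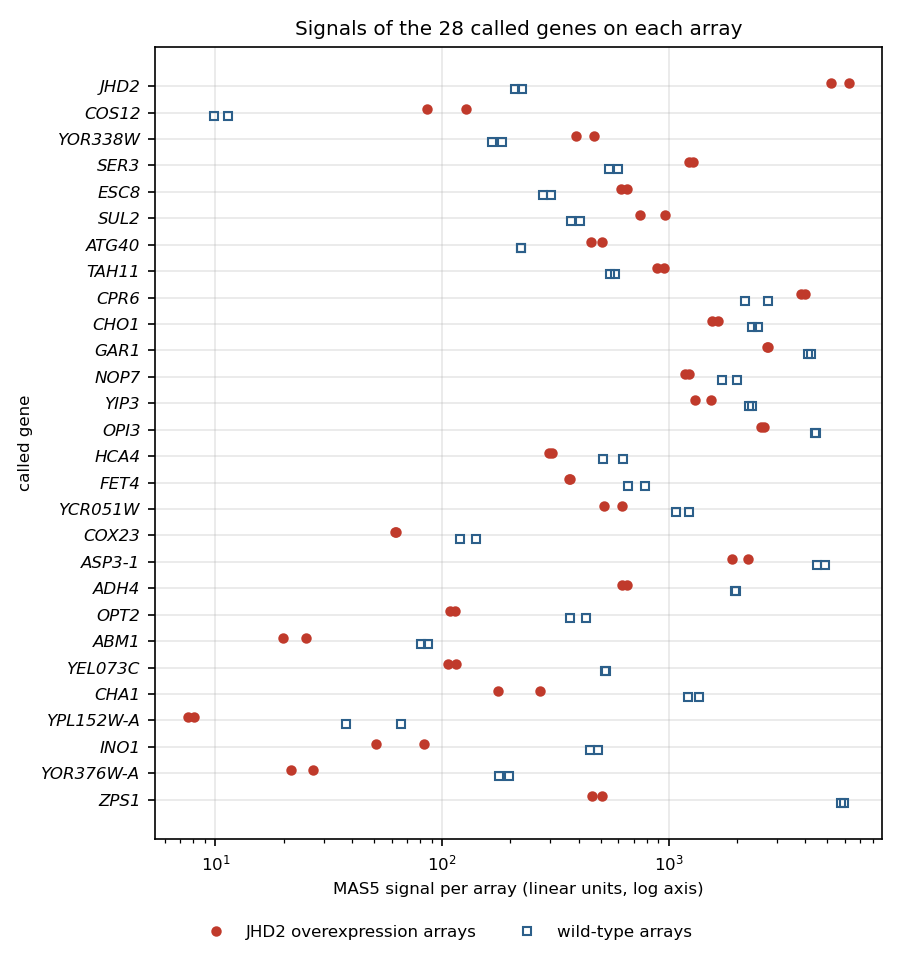
MAS5 signals (horizontal, linear units on a log axis) of the 28 called genes on the 2 JHD2 overexpression arrays (filled circles) and the 2 wild-type arrays (open squares), with genes ordered by their change. The strains lie apart for every gene shown, from JHD2 at the top (5207 and 6237 against 226 and 211) to ZPS1 at the bottom (459 and 508 against 5912 and 5755).

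Of the called genes, the one with the largest decrease was a zinc-responsive gene. ZPS1, a cell-surface protein induced when zinc is scarce, read 459 and 508 on the overexpression arrays, against 5912 and 5755 on the wild-type arrays. The groups lay far apart, with a change of −3.59 ± 0.19 (adjusted p = 1.27e-06), so that the signal was 12.1 times higher in the wild type. On the 10 arrays of the other experiments ZPS1 read 141 to 392, so that the wild type of the overexpression experiment stood above every other array and the overexpression arrays stood above those 10 as well.

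Zap1 is the zinc-sensing activator of these genes, and its 20 listed targets include transporters of the cell surface and the vacuole. In the fit to 14 arrays 4 of the 20 were called, all lower (ZPS1, INO1, ADH4 and FET4), against 0.351% of all tested genes called lower. The median change of the list was −0.54, against 0.00 over all tested genes. ADH4, an alcohol dehydrogenase made when zinc is low, read 622 and 658 on the overexpression arrays and 1966 and 1973 on the wild-type arrays, a change of −1.62 ± 0.13 (adjusted p = 5.6e-05). The 2 pairs of signals were each tight and did not overlap. FET4, a low-affinity transporter of iron, copper and zinc, read 368 and 361 on the overexpression arrays, against 783 and 664 on the wild-type arrays, a change of −0.98 ± 0.18 (adjusted p = 0.0463). With the 3′ to 5′ ratio in the fit FET4 lost its call (−0.92 ± 0.22, adjusted p = 0.109).

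Other members of the zinc list had lower signals without passing the test. ZRT1, the high-affinity zinc importer that lies beside ADH4 on chromosome VII, read 2397.5 and 1667 on the overexpression arrays and 5239 and 5220 on the wild-type arrays. Its groups did not overlap, but the change of −1.39 ± 0.41 missed the threshold (adjusted p = 0.126). ZRT1 passed with the 3′ to 5′ ratio in the fit, at −2.24 ± 0.18 (adjusted p = 0.000171), and with the 4 arrays alone (adjusted p = 0.00077). The activator gene ZAP1, which regulates itself, read 327 and 367 on the overexpression arrays, against 675.5 and 739 on the wild-type arrays, a change of −1.03 ± 0.23 (adjusted p = 0.0605). ZRT3, which releases zinc from the vacuole, changed by −0.51 ± 0.19 (adjusted p = 0.197) and passed only with the ratio in the fit (−0.86 ± 0.13, adjusted p = 0.0119) or with the 4 arrays alone. The secondary importer ZRT2 read 1661 and 1376 on the overexpression arrays and 1459 and 1380 on the wild-type arrays, where the groups overlapped, and the vacuolar zinc importer ZRC1 read 2304 and 2211 against 2219 and 2319. Of the 20 members, 13 had both overexpression arrays below both wild-type arrays and 3 had both above (31.9% and 31.1% of all tested genes).

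Genes of phospholipid synthesis, a list that shares INO1 with the Zap1 targets, were examined next. Ino2 and Ino4 activate these genes and Opi1 represses them when inositol is present, with INO1 as the most responsive target. INO1, which encodes the enzyme that makes inositol phosphate from glucose phosphate, read 50.8 and 82.8 on the overexpression arrays and 449 and 489 on the wild-type arrays. The groups were clearly separate, at a change of −2.85 ± 0.30 (adjusted p = 0.000521), 7.22 times higher in the wild type. The 6 arrays of the jhd2 deletion experiment read 38.3 to 60.1 for INO1 and the 4 of the set1 deletion experiment 64.8 to 158, so that here too the wild type of the overexpression experiment was the highest of all groups.

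Of the 18 phospholipid genes 3 were called, all lower (0.351% of all tested genes), and the median change of the list was −0.53. OPI3, a methyltransferase of phosphatidylcholine synthesis, read 2644 and 2547 on the overexpression arrays and 4477 and 4422 on the wild-type arrays, a change of −0.78 ± 0.15 (adjusted p = 0.0479). CHO1, phosphatidylserine synthase, read 1547 and 1646.5 on the overexpression arrays, against 2469 and 2335 on the wild-type arrays, a change of −0.59 ± 0.12 (adjusted p = 0.0498). Neither gene's groups overlapped, and both calls stood close to the threshold. The choline transporter HNM1 read 1209.5 and 1513 on the overexpression arrays, against 2205 and 2243 on the wild-type arrays (−0.72 ± 0.18, adjusted p = 0.101), and the inositol transporter ITR1 read 2746 and 3199 against 4103 and 4016 (−0.45 ± 0.15, adjusted p = 0.155). Both transporters passed when the 3′ to 5′ ratio was in the fit, at −0.98 ± 0.17 (adjusted p = 0.0313) for HNM1 and −0.69 ± 0.12 (adjusted p = 0.0337) for ITR1. With that covariate 5 of the 18 genes were called, all lower (0.351% of all tested genes), and with the 4 arrays alone 12, all lower (10.2%).

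The regulators of the phospholipid genes did not pass. INO2 read 107 and 103 on the overexpression arrays and 279.5 and 292 on the wild-type arrays, a change of −1.44 ± 0.54 (adjusted p = 0.195), which became −0.33 ± 0.27 with the 3′ to 5′ ratio in the fit. INO4 read 252 and 359 on the overexpression arrays, against 681 and 544 on the wild-type arrays (−1.02 ± 0.36, adjusted p = 0.175), and changed by −0.44 ± 0.30 with the ratio. OPI1 read 440.2 and 631 on the overexpression arrays, against 801 and 727 on the wild-type arrays (−0.53 ± 0.23, adjusted p = 0.23), and changed by −0.88 ± 0.20 with the ratio (adjusted p = 0.0884). Phosphatidylinositol synthase, PIS1, overlapped between the strains, at 2395 and 2142 on the overexpression arrays and 1945 and 2296 on the wild-type arrays.

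**Figure D3:**
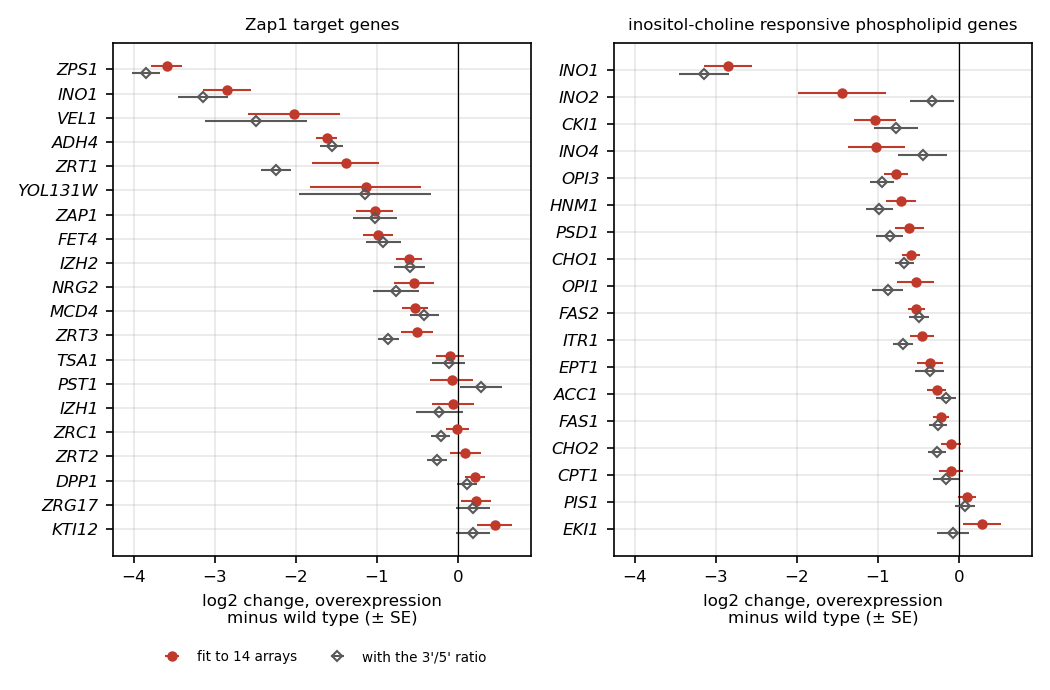
Change of each member (horizontal, log2, overexpression minus wild type, with its SE) of the 20 Zap1 targets and the 18 phospholipid genes, from the fit to 14 arrays (filled circles) and from the same fit with the 3′ to 5′ ratio as a covariate (open diamonds). ZPS1 and INO1 lie farthest to the left in both fits, ZRT1 lies at −2.24 with the ratio in the fit and at −1.39 without it, and INO2 at −0.33 with it and −1.44 without.

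CHA1 and SER3, which act on serine in opposite senses, moved in opposite directions. CHA1, the serine and threonine deaminase that serine induces, read 177 and 270.5 on the overexpression arrays and 1353 and 1213 on the wild-type arrays. The groups did not overlap, and the change was −2.55 ± 0.17 (adjusted p = 8.82e-06), 5.85 times higher in the wild type. The other 10 arrays of the series read 2455 to 3231 for CHA1, so that the overexpression arrays were the lowest of all. SER3, the first enzyme of serine synthesis, read 1230.1 and 1282 on the overexpression arrays and 544 and 599.6 on the wild-type arrays, a change of 1.14 ± 0.20 (adjusted p = 0.034). SER3 missed the threshold with the 3′ to 5′ ratio in the fit (0.83 ± 0.16, adjusted p = 0.052).

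The rest of the serine and glycine list showed smaller differences. CHA1 and SER3 were the only 2 genes called of its 14 members (0.517% of all tested genes), and the median change was 0.16. SER33, the paralog of SER3, read 2038 and 2025 on the overexpression arrays, against 1679 and 1907 on the wild-type arrays (0.18 ± 0.12, adjusted p = 0.412). CHA4, the activator of CHA1, read 545 and 452 on the overexpression arrays, against 497 and 410.1 on the wild-type arrays, and overlapped between the strains. GCV1, a subunit of the glycine cleavage complex, read 2558 and 1613 on the overexpression arrays and 1154 and 1364.5 on the wild-type arrays (0.70 ± 0.22, adjusted p = 0.143).

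SUL2, a sulfate importer, was the one called gene of the 23 sulfur and methionine genes (0.517% of all tested genes). It read 965 and 745 on the overexpression arrays and 407 and 371 on the wild-type arrays, with no overlap and a change of 1.13 ± 0.19 (adjusted p = 0.0316). SUL2 kept its call with the 3′ to 5′ ratio in the fit, at 1.20 ± 0.21 (adjusted p = 0.0313). Its paralog SUL1 read 273 and 132 on the overexpression arrays, against 86.0 and 88.0 on the wild-type arrays, a change of the same size with a larger error (1.13 ± 0.35, adjusted p = 0.139). MET28, a cofactor of the activator Met4, read 587 and 698 on the overexpression arrays, against 181 and 302 on the wild-type arrays (1.45 ± 0.47, adjusted p = 0.15). The S-adenosylmethionine synthetase gene SAM2 read 3004 and 3451 on the overexpression arrays and 4736 and 5112 on the wild-type arrays (−0.61 ± 0.16, adjusted p = 0.0992). The median of the list was 0.12. The 2 strains did not overlap for 18 of its members, 11 higher and 7 lower, against 31.1% and 31.9% of all tested genes.

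ASP3-1, one of the repeated genes for the secreted asparaginase, was called lower in 2 experiments, but in the overexpression comparison the call was lost with the 3′ to 5′ ratio in the fit (−1.01 ± 0.23, adjusted p = 0.0884). It read 2234 and 1903 on the overexpression arrays and 4527 and 4910.2 on the wild-type arrays, a change of −1.19 ± 0.20 (adjusted p = 0.034). In the jhd2 deletion experiment the deletion arrays read 1726 to 1906 and their wild-type arrays 3258 to 4474, a change of −1.12 ± 0.17 (adjusted p = 0.0485) (2 genes called in that experiment, 0.0369%). Both strains with the lower signal carried the jhd2 cassette, and the part of the cassette in these changes was not tested. In the set1 deletion experiment the change was −0.17. The ASP3 copies have near-identical sequences that the probe set cannot separate. YLR156W, the gene beside ASP3-1, also has a shared probe set. It changed by −1.56 ± 0.59 in the overexpression strain (limma adjusted p = 0.196) and by −1.79 ± 0.48 in the jhd2 deletion, where it did not pass. With the 3′ to 5′ ratio in the fit its overexpression change passed (−2.72 ± 0.34, adjusted p = 0.00415). Whether the repeated genes changed together was not tested. ASP3-1 was the only one called of 20 nitrogen catabolite genes (0.517% of all tested genes in the overexpression comparison). Their median change was −0.25, and 0.01 under quantile normalization of the arrays.

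Of the 105 ribosome biogenesis genes, 2 were called, both lower (0.351% of all tested genes). NOP7, a factor of large-subunit assembly, read 1231.5 and 1174 on the overexpression arrays and 1998.5 and 1719.9 on the wild-type arrays (−0.62 ± 0.11, adjusted p = 0.034). GAR1, a protein of the box H/ACA particles that modify ribosomal RNA, read 2727 and 2722 on the overexpression arrays, against 4239 and 4110.4 on the wild-type arrays (−0.62 ± 0.10, adjusted p = 0.034). Neither gene overlapped between the strains. The list's median was −0.21, and 59 members lay lower without overlap and 10 higher (31.9% and 31.1% of all tested genes). HCA4, an RNA helicase of small-subunit assembly, was also called, at 295 and 306 on the overexpression arrays and 631 and 512 on the wild-type arrays (−0.92 ± 0.18, adjusted p = 0.0479). All 3 calls were lost with the 3′ to 5′ ratio in the fit, at adjusted p-values of 0.052 for NOP7, 0.0701 for GAR1 and 0.126 for HCA4.

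CPR6, a cyclophilin that binds Hsp90, was the called member of the 29 chaperone genes (0.517% of all tested genes). It read 3848 and 4008 on the overexpression arrays and 2179 and 2734 on the wild-type arrays, with no overlap (0.69 ± 0.13, adjusted p = 0.0479). The median of the list was 0.20, and 20 members lay higher without overlap and 1 lower, against 31.1% and 31.9% of all tested genes. With the 4 arrays alone 11 passed, all higher, against 7.42% of all tested genes. STI1, a co-chaperone that joins Hsp70 to Hsp90, read 4499 and 4570.4 on the overexpression arrays and 2917 and 3325 on the wild-type arrays (0.54 ± 0.11, adjusted p = 0.0579), and AHA1, which activates the Hsp90 ATPase, read 1887 and 1738.5 against 1138 and 1299.7 (0.57 ± 0.16, adjusted p = 0.116). With the 3′ to 5′ ratio in the fit both passed, STI1 at 0.66 ± 0.12 (adjusted p = 0.0337) and AHA1 at 0.82 ± 0.14 (adjusted p = 0.0313). SBA1, another co-chaperone of Hsp90, overlapped between the strains, at 3508 and 3702 on the overexpression arrays and 3297 and 3748 on the wild-type arrays (0.04 ± 0.10, adjusted p = 0.879). The abundant Hsp90 gene HSC82 read 5537 and 5740.3 on the overexpression arrays, against 5336 and 5175 on the wild-type arrays (0.10 ± 0.14, adjusted p = 0.72). BTN2, a stress-induced sorting factor, differed widely between the overexpression arrays themselves, at 2824 and 603, against 2037 and 1707 on the wild-type arrays.

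**Figure D4:**
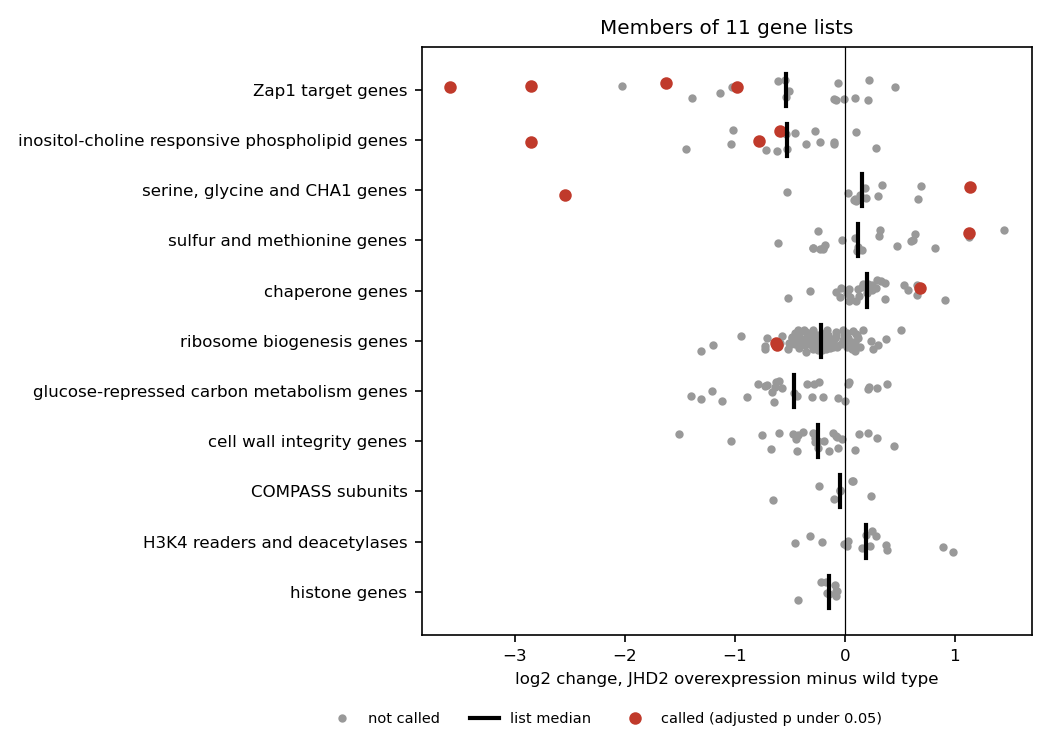
Change (horizontal, log2, overexpression minus wild type) of every tested member of 11 gene lists, with called members in red and the median of each list as a black bar. The medians of the Zap1 targets (−0.54), phospholipid genes (−0.53) and glucose-repressed genes (−0.46, or −0.22 under quantile normalization) lie farthest from 0. No COMPASS subunit, H3K4 reader or deacetylase, or histone gene is called (0.517% of all tested genes are).

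Apart from JHD2, no listed gene of the H3K4 methylation system was called, in a fit that called only 0.517% of all tested genes. SET1 read 606 and 614 on the overexpression arrays and 648.5 and 514 on the wild-type arrays, which overlapped (0.08 ± 0.37, adjusted p = 0.933). None of the 8 COMPASS subunits passed limma's test in the fit to 14 arrays or with the 4 arrays alone, and 0 had an unadjusted p under 0.05, against 19.4% of all tested genes. Their changes spanned −0.66 to 0.24. SHG1, the subunit with the lowest value, read 120 and 160 on the overexpression arrays and 230.0 and 207 on the wild-type arrays (−0.66 ± 0.32, adjusted p = 0.274). Of the other JmjC-domain genes, GIS1 changed by −0.38 ± 0.36, RPH1 by −0.28 ± 0.22, JHD1 by −0.07 ± 0.14 and ECM5 by 0.10 ± 0.17.

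A list that joins readers of the mark with histone deacetylases and their partners was examined as well. HOS2, a histone deacetylase of the Set3 complex, read 234 and 236 on the overexpression arrays, against 145 and 97.5 on the wild-type arrays (0.98 ± 0.51, adjusted p = 0.307), and changed by 0.27 ± 0.49 with the 3′ to 5′ ratio in the fit. UME6, which brings the Rpd3 deacetylase to early meiotic genes, read 517 and 552.5 on the overexpression arrays, against 352 and 235 on the wild-type arrays (0.89 ± 0.34, adjusted p = 0.197). None of the 15 listed readers and deacetylases was called by limma in the fit to 14 arrays, against 0.517% of all tested genes. Of the 15, 3 had an unadjusted p under 0.05, against 19.4% of all tested genes. With the 4 arrays alone 3 of the 15 passed, all higher, against 7.42% of all tested genes. None of the 10 H2B ubiquitination and Paf1 complex genes, the 10 silencing genes or the 9 histone genes was called either (1, 2 and 1 with an unadjusted p under 0.05). With the 4 arrays alone 1 silencing gene passed, higher, and 1 gene of each of the other lists, lower (7.42% and 10.2% of all tested genes). All 9 tested histone genes had negative changes, −0.42 to −0.07, of which HTB1, a gene for histone H2B, was the lowest (−0.42 ± 0.19, adjusted p = 0.241). Their median was −0.15, or −0.05 with the 3′ to 5′ ratio in the fit, where 7 of the 9 kept their sign.

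The nearest tested genes on either side of JHD2 on chromosome X were inspected because a cassette replaced JHD2 in the overexpression strain. ILM1, needed for maintenance of mitochondrial DNA, read 655.5 and 682 on the overexpression arrays, against 951 and 1251 on the wild-type arrays (−0.71 ± 0.22, adjusted p = 0.136). In the jhd2 deletion strain, which also carries the cassette, ILM1 changed by −0.53. Whether the cassette had a part in either change was not tested. ATP2, the beta subunit of the mitochondrial ATP synthase, read 4086 and 4098 on the overexpression arrays and 3704 and 3992 on the wild-type arrays (0.09 ± 0.12, adjusted p = 0.698).

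Genes of glucose-repressed carbon metabolism had a low median without any call (0.517% of all tested genes were called). The median over 29 genes was −0.46, with 17 lower and 2 higher without overlap, against 31.9% and 31.1% of all tested genes. By limma 8 of them had an unadjusted p under 0.05, against 19.4% of all tested genes. With the 4 arrays alone 8 passed, all lower, against 10.2% of all tested genes. ICL1, isocitrate lyase of the glyoxylate cycle, read 143 and 146 on the overexpression arrays and 429 and 341 on the wild-type arrays (−1.40 ± 0.31, adjusted p = 0.0579). The lactate importer JEN1 read 109.8 and 114 on the overexpression arrays, against 342 and 225 on the wild-type arrays (−1.31 ± 0.50, adjusted p = 0.201). ADY2, an acetate transporter, read 72.7 and 27.6 on the overexpression arrays, against 126 and 84.7 on the wild-type arrays (−1.21 ± 0.49, adjusted p = 0.213). Under quantile normalization of the arrays the median of this list was −0.22.

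In the cell wall integrity list, 18 of 27 genes lay lower without overlap and 5 higher, against 31.9% and 31.1% of all tested genes. None was called (0.517% of all tested genes), and 7 had an unadjusted p under 0.05 by limma, against 19.4% of all tested genes. The median was −0.25, or −0.11 with the 3′ to 5′ ratio in the fit. YPS3, a cell-surface protease, read 134 and 157.5 on the overexpression arrays, against 354 and 481.5 on the wild-type arrays (−1.51 ± 0.48, adjusted p = 0.147), and changed by −0.53 ± 0.25 with the 3′ to 5′ ratio in the fit. CRH1, which links chitin to glucan, read 1023 and 1073.5 on the overexpression arrays and 2126 and 2154 on the wild-type arrays (−1.03 ± 0.22, adjusted p = 0.0579). In the phosphate regulon no gene of 18 was called, and 9 had an unadjusted p under 0.05 by limma (19.4% of all tested genes). The overexpression arrays differed from each other for some of these genes. The phosphate importer PHO84 read 747 and 2225 on the overexpression arrays, against 443 and 519 on the wild-type arrays (1.43 ± 0.37, adjusted p = 0.101), and the acid phosphatase PHO5 read 101 and 217 against 361 and 289 (−1.13 ± 0.32, adjusted p = 0.119). Of the 49 lists drawn up, 9 held a called gene, and 13 of the 28 called genes were in none.

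Several called genes outside the metabolic lists lay close to chromosome ends. COS12, of the subtelomeric COS family of membrane proteins, is the outermost protein-coding gene of its arm and read 127.5 and 85.4 on the overexpression arrays, against 11.4 and 9.82 on the wild-type arrays. Only 1 of those 2 wild-type arrays was above background, so the change of 3.30 ± 0.60 (adjusted p = 0.0401) rests on a very low wild-type signal. On the other 10 arrays COS12 read 10.3 to 96.5. It was the only called gene of the 8 COS genes tested (0.517% of all tested genes). Their median was 0.37, or 0.11 with the 3′ to 5′ ratio in the fit. The call of COS12 was lost with the 3′ to 5′ ratio in the fit (2.96 ± 0.70, adjusted p = 0.116). COS10 lay on the other side, at 28.2 and 30.0 on the overexpression arrays and 75.2 and 68.5 on the wild-type arrays (−1.30 ± 0.57, adjusted p = 0.239).

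Of the 28 called genes 8 (28.6%) were among the 20 outermost protein-coding genes of a chromosome arm, against 9.48% of 5412 tested genes, and 7 of these 8 were lower. They were COS12, YEL073C, CHA1, FET4, ADH4, OPT2, ZPS1 and YOR376W-A. YEL073C, a gene of unknown function, read 115 and 106 on the overexpression arrays and 521 and 529 on the wild-type arrays (−2.25 ± 0.37, adjusted p = 0.0316). OPT2, a transporter of peptides and glutathione, read 115 and 108 on the overexpression arrays, against 429.8 and 368 on the wild-type arrays (−1.84 ± 0.35, adjusted p = 0.0478). YOR376W-A, also uncharacterised, read 26.9 and 21.5 on the overexpression arrays, against 197 and 179 on the wild-type arrays (−2.97 ± 0.57, adjusted p = 0.0478). These 3 genes had no overlap between the strains, and all 3 calls were lost with the 3′ to 5′ ratio in the fit. No called gene was the immediate neighbour of another called gene.

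The remaining called genes were lower or higher by less or had low signals. ABM1, a gene linked to microtubule organisation, read 25.0 and 19.9 on the overexpression arrays and 86.4 and 80.6 on the wild-type arrays (−1.91 ± 0.28, adjusted p = 0.0138). YPL152W-A, a small uncharacterised gene, read 8.05 and 7.58 on the overexpression arrays, where only 1 of 2 arrays was above background, against 66.0 and 37.9 on the wild-type arrays (−2.68 ± 0.42, adjusted p = 0.0238). COX23, a protein needed for cytochrome oxidase assembly, changed by −1.06 ± 0.21, YCR051W, an ankyrin-repeat protein, by −1.01 ± 0.18, and YIP3, a Rab-interacting protein of vesicle transport, by −0.69 ± 0.12. None of these 5 overlapped between the strains. With the 3′ to 5′ ratio in the fit ABM1 and YPL152W-A kept their calls, and COX23 (adjusted p = 0.119), YCR051W (adjusted p = 0.0929) and YIP3 (adjusted p = 0.0701) lost theirs.

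Among the higher genes, YOR338W, an uncharacterised gene, read 391 and 469.9 on the overexpression arrays and 166.5 and 183 on the wild-type arrays (1.30 ± 0.24, adjusted p = 0.0461), and kept its call with the 3′ to 5′ ratio in the fit (1.59, adjusted p = 0.0119). ESC8, which is involved in silencing and interacts with Sir2, read 617 and 653 on the overexpression arrays and 277 and 304 on the wild-type arrays (1.13 ± 0.21, adjusted p = 0.0461). ATG40, a receptor for autophagy of the endoplasmic reticulum, read 505 and 452 on the overexpression arrays, against 224 and 223 on the wild-type arrays (1.10 ± 0.19, adjusted p = 0.034). TAH11, which loads the replicative helicase, read 955 and 888.5 on the overexpression arrays, against 549.8 and 578 on the wild-type arrays (0.71 ± 0.13, adjusted p = 0.0478). The groups lay apart for all 4. With the ratio in the fit the calls of ESC8 (adjusted p = 0.0912), ATG40 (adjusted p = 0.052) and TAH11 (adjusted p = 0.0884) were lost.

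The overexpression change was then tested against the changes in the 2 deletion strains, each relative to its own wild type. The overexpression change differed from the jhd2 deletion change for 5 genes (0.0923% of 5415): JHD2, ZPS1, CHA1, INO1 and ADH4. Beside its increase of 4.71 in the overexpression strain, JHD2 was at least 11.1-fold lower in the jhd2 deletion than in its wild type; this bound sets each deletion array at its background, since all 3 lay under it. For the other 4 the jhd2 deletion changes were near 0, at −0.08 ± 0.16 for ZPS1, 0.03 ± 0.14 for CHA1, −0.15 ± 0.24 for INO1 and −0.16 ± 0.11 for ADH4. The differences between the 2 changes were −3.51 ± 0.25 for ZPS1 (adjusted p = 1.61e-05), −2.58 ± 0.22 for CHA1 (adjusted p = 9.49e-05), −2.70 ± 0.38 for INO1 (adjusted p = 0.0131) and −1.47 ± 0.17 for ADH4 (adjusted p = 0.0021). Without replicate 3 of the jhd2 deletion, 65 genes differed. Only 2 genes were called in the jhd2 deletion (0.0369% of 5415), JHD2 and ASP3-1. JHD2 had opposite signs in the 2 experiments, and ASP3-1 was lower in both. With so few calls in the deletion, the calls cannot show whether other genes moved oppositely in gain and loss of JHD2.

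The overexpression change differed from the set1 deletion change for 14 genes (0.259%). This set held 8 of the 28 called genes: JHD2, ZPS1, CHA1, INO1, ADH4, NOP7, OPI3 and OPT2. INO1 was lower in the overexpression strain (−2.85) and had a change of 0.92 ± 0.30 in the set1 deletion, which did not pass there, and the difference was −3.77 ± 0.42 (adjusted p = 0.00106). OPT2 likewise had a change of −1.84 in the overexpression strain and of 1.18 ± 0.35 in the set1 deletion, where it did not pass, with a difference of −3.02 ± 0.50 (adjusted p = 0.0311). OPI3 changed by 0.42 ± 0.15 in the set1 deletion, where it did not pass, and its difference was −1.20 ± 0.21 (adjusted p = 0.0427). The strains of these 2 experiments also differed in mating type, since the 7 a-specific genes summed to 10214 to 11252 and the 5 alpha-specific genes to 533 to 704 on the 4 arrays of the set1 deletion experiment. Without set1 deletion replicate 2 or without wild-type replicate 1 of the overexpression pair, 6 genes had a difference. The other 6 of the 14 genes were SET1, which was the deleted gene, LYS2 and MET17, which differ in the labelled genotypes of the set1 pair, AFB1 and MF(ALPHA)1 of the alpha mating type, and HUG1, a DNA damage response gene. HUG1 read 106 and 101 on the overexpression arrays, against 205 and 206 on the wild-type arrays (−0.99 ± 0.22), and its change in the set1 deletion was 1.41 ± 0.22 (difference −2.40 ± 0.31, adjusted p = 0.004).

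**Figure D5:**
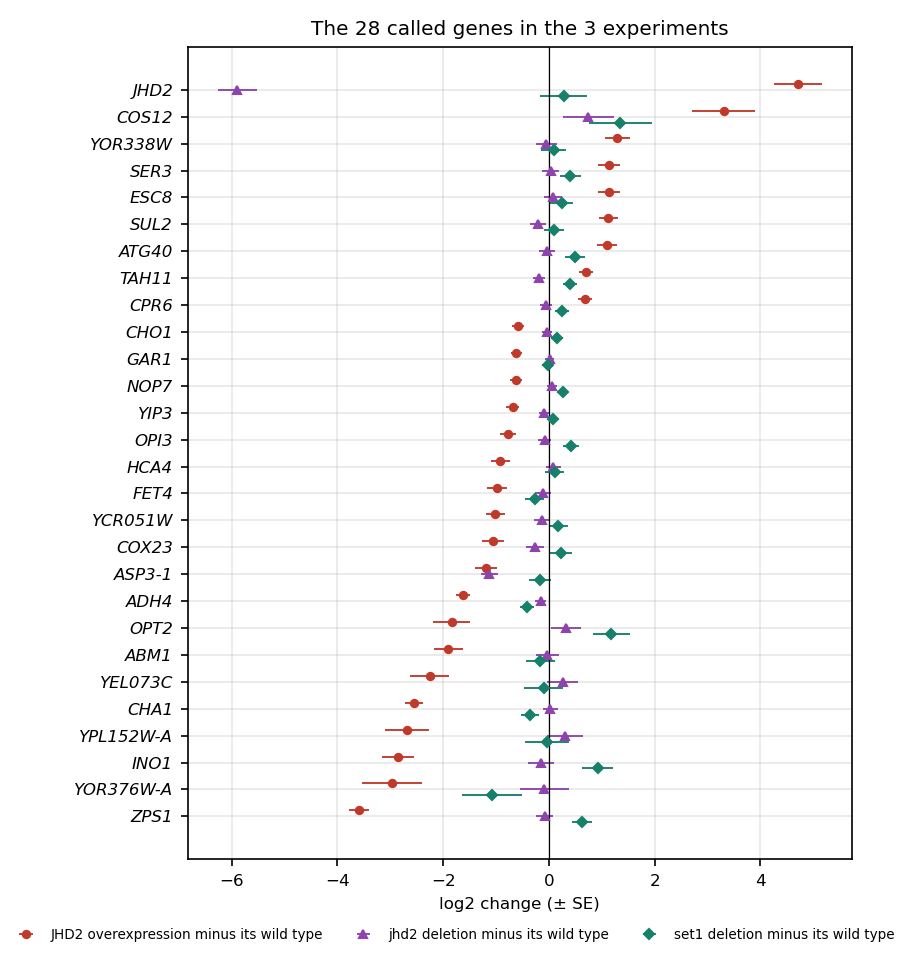
Change (horizontal, log2, with its SE) of the 28 genes called in the overexpression experiment, shown for JHD2 overexpression (circles), the jhd2 deletion (triangles) and the set1 deletion (diamonds), each minus its own wild type. For ZPS1, INO1 and CHA1 the deletion changes lie between −0.36 and 0.92 while the overexpression changes lie between −3.59 and −2.55, and ASP3-1 is lower in both JHD2 strains (−1.19 and −1.12).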

How the data were processed

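Total RNA (10 µg per array) of each culture was hybridised to a 1-colour Affymetrix Yeast 2.0 array. The deposited intensity values are linear MAS5 signals made by the authors, per the submitters' processing notes, which state no software version or scaling target. The mean signal of each array, with 2% trimmed at each end, was 499.8, so the arrays had been scaled to a common level, and no further scaling was applied. Of 10928 probe sets, 5498 were named to 5449 S. cerevisiae genes through GEO's platform annotation and the RefSeq gene table. For the 47 genes with several probe sets the brightest was used, and 112 tested genes share a probe set with a near-identical copy.

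The background of an array was the 95th percentile of its 1746 Schizosaccharomyces pombe probe sets. Genes were tested where their mean log2 signal over the 14 arrays exceeded the same percentile of these probe sets' mean log2 signals (5415, leaving out 34). Signals under 1 were set to 1, and log2 signals of all 14 arrays were fitted by group with limma 3.58.1 (R 4.3.3), with an intensity trend and Benjamini-Hochberg adjustment over all tested genes. All groups entered one fit to share the estimate of the spread. The differences from the deletion changes are contrasts of the same fit. The script was tested on simulated data. The p-values thus rest on a spread pooled within the groups of all 14 arrays, not on that of the compared arrays alone. Only 2 arrays per strain limit the precision.

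The gene lists, and the comparison itself, were chosen with earlier results of these data known. The genes named are JHD2, SET1, the JmjC, COMPASS, marker and neighbour genes, the 15 highest and 15 lowest called genes that did not overlap, up to 6 called members of a list or the 3 with the largest change in a list without a call, and the genes with the smallest adjusted p for each difference. Further list members, HCA4, GAR1, YIP3, YLR156W and the genes of the closing section were named after their values were seen. Alternatives were other scalings, filters, a pseudocount of 32, variance models, the 4 arrays alone, other thresholds, a replicate block, averaged probe sets and each array left out in turn. The 3′ to 5′ ratio as a covariate and the crossed pairing were chosen after seeing the data. Replicate numbers of the 2 strains correlated at −0.14 in their deviations from the group means, so the numbers were not taken to pair the samples. No sequences were read.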

Additional observations from a re-analysis of the deposited data

Results flagged for a closer look

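Changes are log2 and each relative to its own wild type. The interaction contrasts in limma set the overexpression change against the change in a deletion strain, and the genes below differed at an adjusted p under 0.05.

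Against the jhd2 deletion, the overexpression change minus the deletion change had a fitted value of 10.6 for JHD2, which was raised in one strain and deleted in the other. Since JHD2 lay under background on all 3 deletion arrays, that size depends on the floor, and the deletion arrays were at least 11.1-fold lower than their wild type. It was −3.51 for ZPS1, −2.70 for INO1, −2.58 for CHA1 and −1.47 for ADH4, all of them lower in the overexpression strain.

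Against the set1 deletion the difference was −4.21 for ZPS1, −3.77 for INO1, −3.02 for OPT2, −2.19 for CHA1, −1.21 for ADH4, −1.20 for OPI3 and −0.88 for NOP7, all 7 of them called lower in the overexpression strain. It was 4.43 for JHD2. The genes that differ in the labelled genotypes of the set1 pair gave fitted values of 8.02 for SET1, 10.26 for MET17 and −8.32 for LYS2. These sizes depend on the floor, because 1 strain of the set1 pair lay under background. In the set1 deletion SET1 was at least 47.4-fold lower, MET17 at least 350.1-fold lower and LYS2 at least 137-fold higher than in its wild type, and LYS2 was under background on all 4 arrays of the overexpression experiment. HUG1 had a difference of −2.40, with signals of 665 to 667 in the set1 deletion and 206 to 305 in its wild type. AFB1 had a difference of 1.03 and MF(ALPHA)1 of −1.07. Both alpha-specific genes lay far lower in the set1 pair, where MF(ALPHA)1 read 24.1 to 28.4 in the deletion and 11.8 to 13.4 in the wild type, than on the 4 arrays of the overexpression experiment, where it read 5339 to 5481.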

How the results depend on the processing

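The number of genes called in the overexpression comparison was 28 and changed with most settings. It was 135 with quantile normalization, 13 with median centring, 15 with a stricter filter, 11 without an intensity trend, 1055 with array weights, 955 with the 4 arrays alone, 5 at an adjusted p under 0.01 and 109 under 0.10. The replicate block gave 1105, and the crossed pairing 1175. With the block 1 of the 8 COMPASS subunits passed, lower. Leaving out 1 array gave 5 to 157: 5 without overexpression replicate 2 or its wild-type replicate 1, 7 without overexpression replicate 1 or its wild-type replicate 2, 9 without either set1 deletion array, 13 and 10 without wild-type replicates 1 and 2 of the jhd2 experiment, 15 without jhd2 deletion replicate 1, 79 without jhd2 deletion replicate 3 and 157 without wild-type replicate 3 of that experiment. Genes whose overexpression change differed from the jhd2 deletion change numbered 5, against 8 with a pseudocount of 32, 8 without a trend, 870 with array weights, 544 with the replicate block and 13 with the 3′ to 5′ ratio. Leaving out 1 array gave 4 to 65, the highest without jhd2 deletion replicate 3. For the set1 deletion the count was 14, against 26 with quantile normalization, 26 without a trend, 25 with array weights, 585 with the replicate block, 23 with the ratio, 6 under 0.01 and 26 under 0.10. Leaving out 1 array gave 6 to 18, with 6 without set1 deletion replicate 2 or the overexpression pair's wild-type replicate 1, 7 without set1 deletion replicate 1, overexpression replicate 1 or its wild-type replicate 2, 8 without overexpression replicate 2 or wild-type replicate 1 of the jhd2 experiment, and 9 without wild-type replicate 2 or jhd2 deletion replicates 1 or 2 of that experiment. The cause of these movements was not tested. No named gene that was called had its direction reversed under any alternative run. The 2 differences could not be fitted with the 4 arrays alone.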

Other observations

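Further genes had large differences between the strains without passing the test in the fit to 14 arrays, and they were chosen after their values were seen. DED1, an RNA helicase of translation initiation, read 750.4 and 711 on the overexpression arrays, against 2630.1 and 3192 on the wild-type arrays (−1.99 ± 0.56, limma adjusted p = 0.119). RPO21, the largest subunit of RNA polymerase II, read 354 and 382 on the overexpression arrays, against 1403 and 1259.8 on the wild-type arrays (−1.85 ± 0.75, adjusted p = 0.213). The cell cycle inhibitor gene WHI5 read 35.1 and 36.3 on the overexpression arrays, against 261 and 308 on the wild-type arrays (−2.99 ± 0.92, adjusted p = 0.137). WHI3, an RNA-binding protein that acts on the G1 cyclin transcript CLN3, read 168 and 180.2 on the overexpression arrays, against 668 and 725 on the wild-type arrays (−2.00 ± 0.57, adjusted p = 0.12). These 4 genes also lay lower in replicate 3 than in replicates 1 and 2 of the jhd2 deletion experiment, by 1.65 for DED1, 2.22 for RPO21, 2.71 for WHI5 and 1.67 for WHI3 on the log2 scale. With the 3′ to 5′ ratio in the fit the overexpression changes were smaller, at −0.75 ± 0.15 for DED1 (adjusted p = 0.052), −0.24 ± 0.28 for RPO21 (adjusted p = 0.823), −0.96 ± 0.23 for WHI5 (adjusted p = 0.115) and −0.76 ± 0.19 for WHI3 (adjusted p = 0.135).

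There were 927 genes called with the 4 arrays alone and not in the fit to 14 arrays. The difference of replicate 3 in the jhd2 deletion experiment had the same sign as the overexpression change for 817 of them (88.1%). The sign was also the same for 20 of the 28 genes called in the fit to 14 arrays. The same share was not counted over all 5415 tested genes, across which this difference and the overexpression change correlated (Pearson r = 0.58). Whether either share stood apart from that of all tested genes was therefore not tested.

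Other gene groups were followed on the same scale. Of the 33 proteasome subunit genes 24 had a positive change, with a median of 0.10 (0.05 with the ratio in the fit). By limma 0 were called (0.517% of all tested genes) and 2 had an unadjusted p under 0.05, against 19.4% of all tested genes. RPN4, the activator of the proteasome genes, read 2476.5 and 2181 on the overexpression arrays, against 1369 and 1319.7 on the wild-type arrays (0.79 ± 0.24, adjusted p = 0.132). Of the 15 purine synthesis genes 0 were called and 6 had an unadjusted p under 0.05 (19.4% of all tested genes). Their median was −0.13 (−0.32 with the ratio), and 5 passed with the 4 arrays alone, all lower (10.2% of all tested genes). The 71 mitochondrial ribosomal protein genes had a median of 0.13 (0.08 with the ratio) and 0 called. Without overlap 34 lay higher and 19 lower (31.1% and 31.9% of all tested genes), and 20 had an unadjusted p under 0.05 (19.4%). For the 122 cytosolic ribosomal protein genes the median was −0.04, with 0 called and 0 at an unadjusted p under 0.05.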
